A study of Homo sapiens with 6 samples.

Results

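The 10 genes described here are the classical cadherins CDH1, CDH2, CDH3, CDH4 and CDH11 and the catenins CTNNA1, CTNNA2, CTNNB1, CTNND1 and CTNND2. They were chosen by name as members of a family, with earlier results of these data known. Every gene probe on the arrays that carried one of these symbols was taken, without regard to its signal. This gave 17 probes of 34127 probes on the array. Of the 17 probes, 12 probes (of 8 genes) were bright enough to be tested, out of 23105 probes tested in all.

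A pair of cell lines derived from human T47Dco breast cancer xenografts grown in ovariectomized NOD SCIDγ mice were compared, each in 3 sorts with 1 Agilent 4x44K array per sort. The pure luminal line pLUM came from a tumor of a mouse given estradiol (E) and was sorted repeatedly for CLD3+ CD49f- cells. It was kept in 1 nM E, and was E-treated for 72 h before RNA was taken. The pure luminobasal line pLB came from a tumor of a mouse given E plus progesterone, was sorted repeatedly for CLD3- CD49f+ cells and was kept under E-withdrawn (EWD) conditions. Cells of both lines were fixed, stained for the basal keratin CK5 and sorted again; the labels do not say which CK5 fraction was hybridized. Each line stands for 1 tumor, and every pLUM array had E while every pLB array had none, so that the line and the hormone cannot be told apart. The arrays of a line are repeat sorts of it, and p-values measure only the spread between those sorts.

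Classical cadherins are single-pass membrane proteins that bind cadherins on the neighboring cell through calcium-dependent contacts and hold epithelial sheets together at adherens junctions. Inside the cell, the cadherin tail binds β-catenin (CTNNB1) and a p120-type catenin (CTNND1, or δ-catenin CTNND2), and α-catenin (CTNNA1, CTNNA2) ties β-catenin to actin. In normal breast, E-cadherin (CDH1) is found between luminal cells and P-cadherin (CDH3) in the basal, myoepithelial layer, while N-cadherin (CDH2) and cadherin-11 (CDH11) are better known from neural and mesenchymal cells. β-catenin also acts in the nucleus, where it works with TCF/LEF factors at Wnt target genes.

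CTNNA1, CTNNB1 and CTNND1 each had a pair of tested probes whose fitted changes between the lines differed. The 95% intervals of the CTNNB1 changes overlapped (0.24 to 1.12 and -0.54 to 0.85 on the log2 scale). The dimmer probe of each pair is shown to fix its identity. The position of each is on hg19, on the + strand, and the probe is written 5′ to 3′. The CTNNA1 probe lay at chr5:138266534-138266593, the CTNNB1 probe at chr3:41280687-41280746 and the CTNND1 probe at chr11:57582867-57582926. Of 3 reading frames in the transcript's direction, 2 were open in this CTNNA1 probe, 1 in this CTNNB1 probe and 2 in this CTNND1 probe, against 1, 0 and 1 in the brighter probe of each pair.
CTNNA1: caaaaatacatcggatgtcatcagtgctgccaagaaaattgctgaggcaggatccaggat
CTNNB1: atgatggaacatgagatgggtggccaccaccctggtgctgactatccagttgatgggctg
CTNND1: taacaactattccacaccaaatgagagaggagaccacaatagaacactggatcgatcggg

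CDH2 and CTNND2 went from near background in pLUM to well above it in pLB, and the 250 bases before 1 RefSeq start of each are shown for that reason. Each gene had a pair of starts in the table, and the window richer in CG was printed. They are from GRCh38.p14, both on the - strand, with every CG dinucleotide in capitals. The CDH2 window was chr18:28177131-28177380 and the CTNND2 window chr5:11904447-11904696.
CDH2: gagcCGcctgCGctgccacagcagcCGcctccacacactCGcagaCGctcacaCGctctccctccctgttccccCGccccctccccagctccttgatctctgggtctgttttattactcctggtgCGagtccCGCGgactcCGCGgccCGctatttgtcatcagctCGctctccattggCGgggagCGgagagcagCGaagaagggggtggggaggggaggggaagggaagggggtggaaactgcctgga
CTNND2: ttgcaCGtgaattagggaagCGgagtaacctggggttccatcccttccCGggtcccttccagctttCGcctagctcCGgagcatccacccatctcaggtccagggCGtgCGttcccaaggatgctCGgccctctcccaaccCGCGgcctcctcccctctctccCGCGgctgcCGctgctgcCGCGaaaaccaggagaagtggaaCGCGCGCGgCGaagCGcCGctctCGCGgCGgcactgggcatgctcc
The CDH2 window held 17 CG dinucleotides, a count reached by 39.0% of the 35116 RefSeq windows of this length, whose median was 11. The CTNND2 window held 25, a count reached by 21.6% of the windows. The window of the other start held 4 in each gene, a count reached by 70.7% of the windows. The E-box CAGGTG and its reverse complement CACCTG, the letters bound by SNAI and ZEB factors, were searched on both strands. They were in 17.5% of all windows and in 1 of the 15 windows of the 6 members listed in the table (CDH2, CDH4, CTNNA1, CTNNA2, CTNNB1 and CTNND2), which belonged to CDH4. Neither window printed above held these letters.

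Levels below are log2 values of the scanner's background-corrected signal, less the log2 of the 75th percentile of that array, so that 0 marks the 75th percentile. They compare arrays, not probes, since probes differ in how well they bind. Probes that cleared the scanner's background threshold on 3 or more of 6 arrays were tested, and a probe was called where it differed at least 2-fold with an adjusted p under 0.05 (limma with Benjamini-Hochberg adjustment over all tested probes). The 3 pLUM arrays and pLB replicate 1 were on slide 1, and pLB replicates 2 and 3 on slide 2. With slide as a block, which leaves pLB replicate 1 as the only pLB array set against pLUM, the same 8 member probes were called. Array 75th percentiles ran from 449 to 869 intensity units, and values of all probes correlated at 0.972 to 0.991 within a line and at 0.780 to 0.806 between lines. The lines differed broadly, and 45.6% of all tested probes were called, 21.9% as higher in pLB and 23.7% as lower. By each gene's brightest tested probe, 7 of 8 luminal markers were lower in pLB and none higher, and 5 of 5 basal markers were higher. Of the 3 probes of the luminal marker KRT8, 2 were called lower and 1 higher. The markers include CLDN3 (CLD3) and ITGA6 (CD49f), by which the lines were sorted, and KRT5 (CK5), the stain of the last sort. For those genes the count is no independent check of the labels.

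More of the tested cadherin and catenin genes were called higher in pLB than lower. P-cadherin, N-cadherin, cadherin-11, α-catenin and δ-catenin rose, with fitted folds between 2.71 (CTNNA1) and 271 (CTNND2). p120-catenin (CTNND1) fell 2.37-fold by its brighter probe. E-cadherin and β-catenin did not pass the test by their brightest probes. Of the 12 tested probes, 7 were called higher and 1 lower, and by genes (each represented by its brightest tested probe) 5 of 8 were higher and 1 lower. CDH2, CDH11 and CTNND2 passed the filter only through their pLB arrays, so that a rise was the only large change they could show. With only probes above background on all 6 arrays, 2 genes were called higher and 1 lower. Among all genes 45.7% were called, 22.7% as higher and 23% as lower. The arrays of the lines did not overlap for 9 of the 12 member probes, and for 68.1% of all tested probes. The genes are few, were chosen as a family with earlier results of these data known and have no test as a group.

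**Figure D1:**
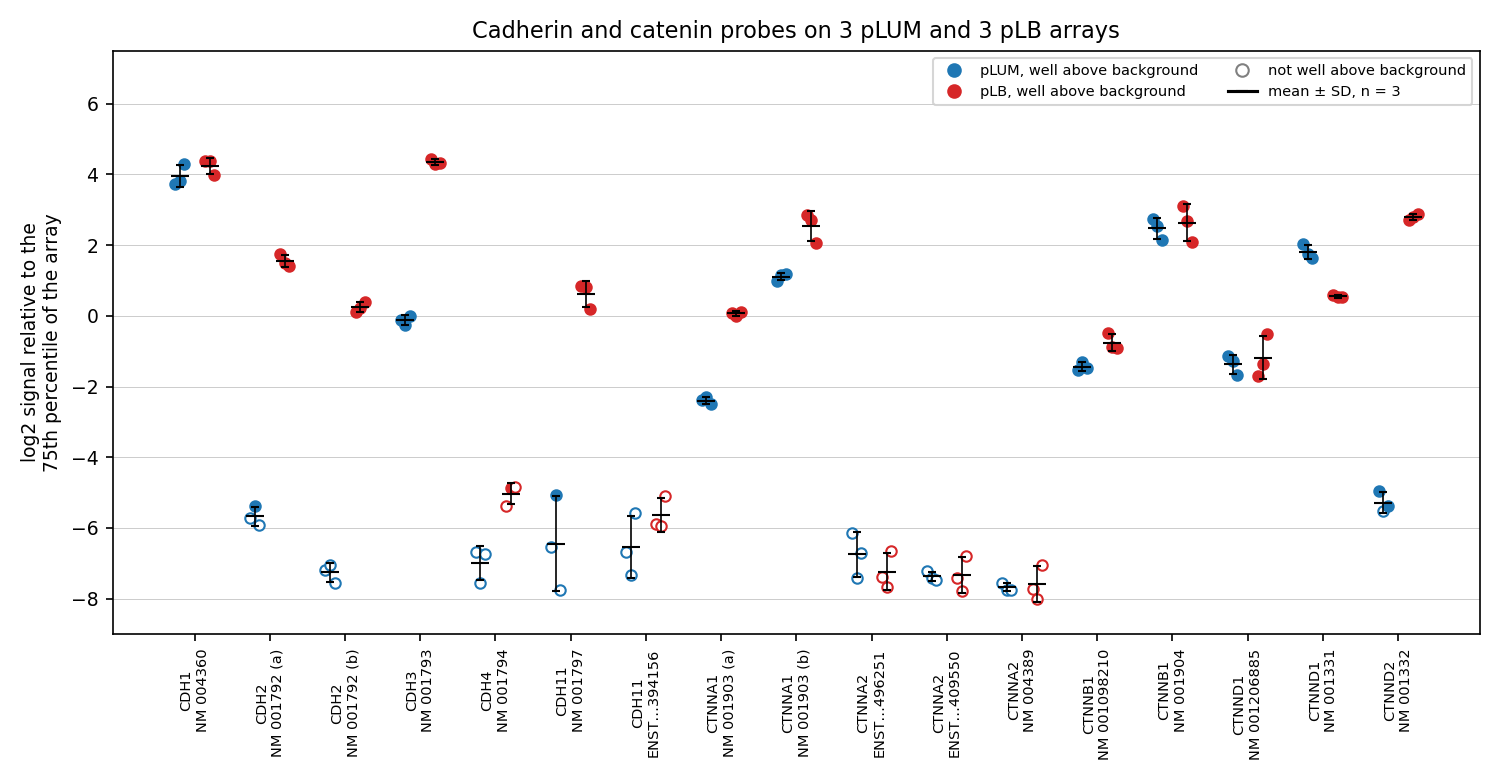
Normalized log2 signal of the 17 cadherin and catenin probes on each of the 3 pLUM and 3 pLB arrays; 0 is the array's 75th percentile, bars are the mean ± SD of 3 arrays, and open symbols mark arrays where the probe was not well above background. CDH2, CTNND2 and the CDH11 probe for NM_001797 sit near the bottom of the scale in pLUM and above 0 in pLB. The CDH11 probe for ENST00000394156 stays near the bottom in both lines. CDH3 moves from about the 75th percentile upward, and the CDH1 arrays of the lines overlap.

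E-cadherin was read by 1 probe (NM_004360, chr16:68869214-68869273, hg19, + strand), printed in 10 spots on each array. The log2 level of CDH1 was 3.73, 3.81 and 4.30 on the pLUM arrays and 4.38, 4.38 and 3.99 on the pLB arrays. The lines overlapped, because pLB replicate 3 lay below pLUM replicate 3. The log2 difference, pLB minus pLUM, was 0.30 (SE 0.22, limma adjusted p = 0.27), with a 95% interval from -0.22 to 0.82. That interval holds no change and also a rise of up to 0.82, so that equal levels were not shown. It was wider with slide as a block (0.43, from -0.34 to 1.204) and with spike-in scaling (0.55, from -0.39 to 1.49), and both of these reach past a 2-fold rise. Leaving out 1 array moved the difference between 0.19 (without pLUM replicate 1) and 0.48 (without pLUM replicate 3), with no call. The repeated spots of this probe differed little within an array (SD 0.049 to 0.093), less than the SD of 0.31 among the pLUM arrays and 0.23 among the pLB arrays.

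P-cadherin had 1 probe on the same chromosome (NM_001793, chr16:68732812-68732871, + strand), 136 kb from the CDH1 probe. CDH3 had log2 levels of -0.11, -0.26 and 0.01 in pLUM and 4.44, 4.29 and 4.33 in pLB. It was well above background on all 6 arrays, and no array of one line came near the other line. The log2 difference was 4.47 (SE 0.16, limma adjusted p = 1.2e-06), a 22.2-fold rise, and it was 4.56 on slide 1. It stayed between 4.28 and 4.72 under every scaling and background correction tried.

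The difference between the CDH3 and CDH1 probes on the same array needs no scaling between arrays. It was -3.84, -4.07 and -4.29 in pLUM and 0.06, -0.10 and 0.34 in pLB. All pLB arrays lay above all pLUM arrays, and the ratio of P-cadherin to E-cadherin signal was 18.0-fold higher in pLB. The exact permutation test gave a two-sided p = 0.1, the smallest that 3 arrays against 3 can give. The ratio shows that the genes changed unequally, not that CDH1 was unchanged.

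N-cadherin had a pair of probes for NM_001792 on chromosome 18 (hg19, - strand). At chr18:25530936-25530995 the log2 level was -5.72, -5.38 and -5.92 in pLUM and 1.74, 1.495 and 1.40 in pLB. Only 1 of 3 pLUM arrays was well above background there, and all pLB arrays were. The fitted log2 difference was 7.22 (SE 0.20, limma adjusted p = 5.2e-07). At chr18:25532081-25532140 the log2 level was -7.18, -7.05 and -7.55 in pLUM, on no array well above background, and 0.12, 0.21 and 0.40 in pLB. By that probe, the rise of CDH2 was at least 49.2-fold (limma adjusted p = 4.1e-07), a bound set by the dimmest signal still above background on each pLUM array. With the normexp background correction, which lifts dim signals, the log2 differences were 4.21 and 2.97 in place of 7.22 and 7.501, and both stayed called. The bound of 49.2-fold, like those given below, holds for the main background correction and not for normexp.

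Cadherin-11 gave a similar picture by the probe for NM_001797 (chr16:64980869-64980928, hg19, - strand). Its levels were -6.53, -5.06 and -7.75 in pLUM and 0.84, 0.83 and 0.19 in pLB. Only 1 of 3 pLUM arrays was above background, and the pLUM arrays scattered more (SD 1.35) than the pLB arrays (SD 0.37). The fitted log2 difference was 7.06 (SE 0.62, limma adjusted p = 6.3e-05), with a 95% interval from 5.61 to 8.52. It was 3.42 with normexp. The second CDH11 probe, made for ENST00000394156 (chr16:64982513-64982572), was well above background on no array, with log2 levels from -7.34 to -5.09. The CDH11 rise therefore rests on 1 probe.

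R-cadherin (CDH4, NM_001794, chr20:60511966-60512025, + strand) was well above background on 1 array, pLB replicate 2, and was not tested. The levels were -6.69, -7.56 and -6.72 in pLUM and -5.38, -4.87 and -4.85 in pLB, all near the background limit of the arrays. No fold is given for it.

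**Figure D2:**
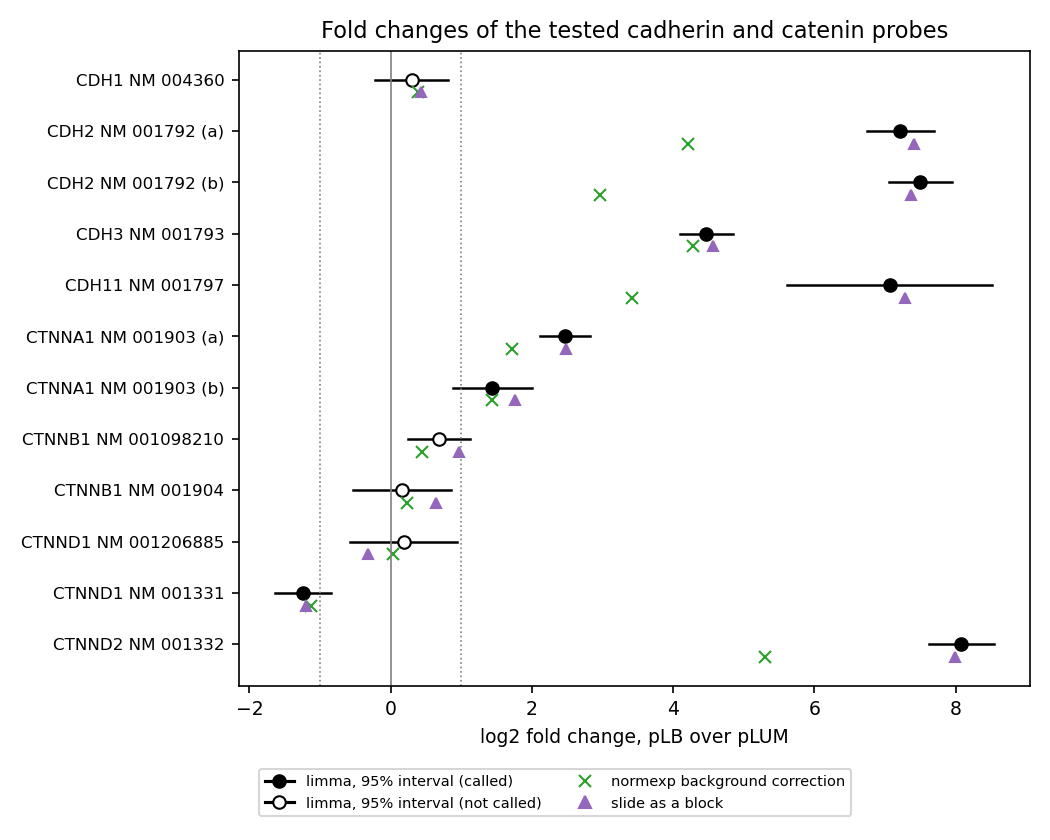
Log2 fold change, pLB over pLUM, of the 12 tested cadherin and catenin probes with 95% intervals from limma (filled, called; open, not called; dotted lines mark 2-fold), with the estimates under normexp background correction and with slide as a block. The CDH2, CDH11 and CTNND2 estimates shrink with normexp and stay far to the right, CDH3 hardly moves, and the less bright CTNND1 probe crosses 0 with slide as a block.

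Of the α-catenins, the epithelial form CTNNA1 rose by both of its probes, and the neural form CTNNA2 was well above background on no array and was not tested. The CTNNA1 probe printed above had log2 levels of -2.39, -2.30 and -2.50 in pLUM and 0.09, 0.00 and 0.11 in pLB. The log2 difference was 2.47 (SE 0.15, limma adjusted p = 1.2e-05), a 5.52-fold rise. The brighter probe for the same transcript, at chr5:138270387-138270446 (+ strand), had 0.99, 1.15 and 1.19 in pLUM and 2.87, 2.71 and 2.07 in pLB. It rose by 1.44 on the log2 scale (SE 0.24, limma adjusted p = 0.0014), or 2.71-fold. Neither probe overlapped between the lines. Within an array, the brighter probe was 3.51 ± 0.17 above the other in pLUM and 2.48 ± 0.46 in pLB (SD, n = 3 each), so that the probes differed 2.04-fold in how far they rose (two-sided exact permutation p = 0.1). With normexp the dimmer probe's log2 rise was 1.71 and the brighter probe's 1.43, so that the probes lay closer together than with the main background correction.

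CTNNA2 had 3 probes on chromosome 2 (starts 79566745, 80555414 and 80875371, + strand), for ENST00000496251, ENST00000409550 and NM_004389. None was well above background on any of the 6 arrays, with log2 levels from -8.00 to -6.14. No fold is given.

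β-catenin, the link between cadherin tail and α-catenin and also the Wnt co-activator, did not pass the call by either probe. The probe printed above (NM_001098210) had log2 levels of -1.54, -1.30 and -1.47 in pLUM and -0.47, -0.89 and -0.91 in pLB. The lines did not overlap, and the log2 difference of 0.68 (SE 0.19, limma adjusted p = 0.015) was 1.60-fold, under the 2-fold limit. The brighter probe, for NM_001904 at chr3:41281749-41281808 (+ strand), was printed in 10 spots per array. Its log2 level was 2.74, 2.53 and 2.15 in pLUM and 3.12, 2.69 and 2.08 in pLB, so that the lines overlapped. The log2 difference was 0.15 (SE 0.30, limma adjusted p = 0.67), with a 95% interval from -0.54 to 0.85. On slide 1 it was 0.64, and it was -0.090 without pLB replicate 1, the brightest of these arrays. Relative to this probe, the brighter CTNNA1 probe lay 1.37 lower in pLUM and 0.08 lower in pLB, and this α- to β-catenin signal ratio was 2.43-fold higher in pLB with no overlap of the arrays (two-sided exact permutation p = 0.1).

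p120-catenin, which holds cadherins at the membrane, was the single member that fell. Its brighter probe (NM_001331, chr11:57586315-57586374, hg19, + strand) had log2 levels of 2.02, 1.75 and 1.63 in pLUM and 0.60, 0.53 and 0.53 in pLB. All pLB arrays were below all pLUM arrays, and the log2 difference was -1.24 (SE 0.17, limma adjusted p = 5.3e-04), a 2.37-fold fall. With scaling to the array's spike-in probes it was -0.995, just under 2-fold, and was not called. The CTNND1 probe printed above (NM_001206885) had -1.15, -1.29 and -1.68 in pLUM and -1.70, -1.36 and -0.51 in pLB. These overlapped, and the log2 difference was 0.19 (SE 0.32, limma adjusted p = 0.64, 95% interval from -0.57 to 0.94), or -0.32 on slide 1. The distance between the CTNND1 probes was 3.17, 3.04 and 3.31 in pLUM and 2.30, 1.89 and 1.04 in pLB. The fall of CTNND1 thus rests on 1 of 2 probes. Whether the probes read different transcripts was not tested. Against E-cadherin on the same array, the brighter CTNND1 probe was 2.92-fold lower in pLB, with no overlap (two-sided exact permutation p = 0.1).

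δ-catenin, the p120-type catenin best known from neurons, had the largest fitted change of the members, with the main settings and with normexp. Its probe (NM_001332, chr5:10973084-10973143, hg19, - strand) was printed in 10 spots per array. CTNND2 had log2 levels of -4.96, -5.53 and -5.38 in pLUM and 2.70, 2.79 and 2.88 in pLB. In intensity units, the mean over spots was 12.4 to 15.5 on the pLUM arrays and 3299 to 5664 on the pLB arrays. The log2 difference was 8.08 (SE 0.20, limma adjusted p = 3.5e-07), a fitted 271-fold rise. In pLUM, 6 of 9, 2 of 9 and 5 of 8 kept spots were above background, so that the pLUM level was near the limit of the arrays. With normexp the rise was 5.30.

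**Figure D3:**
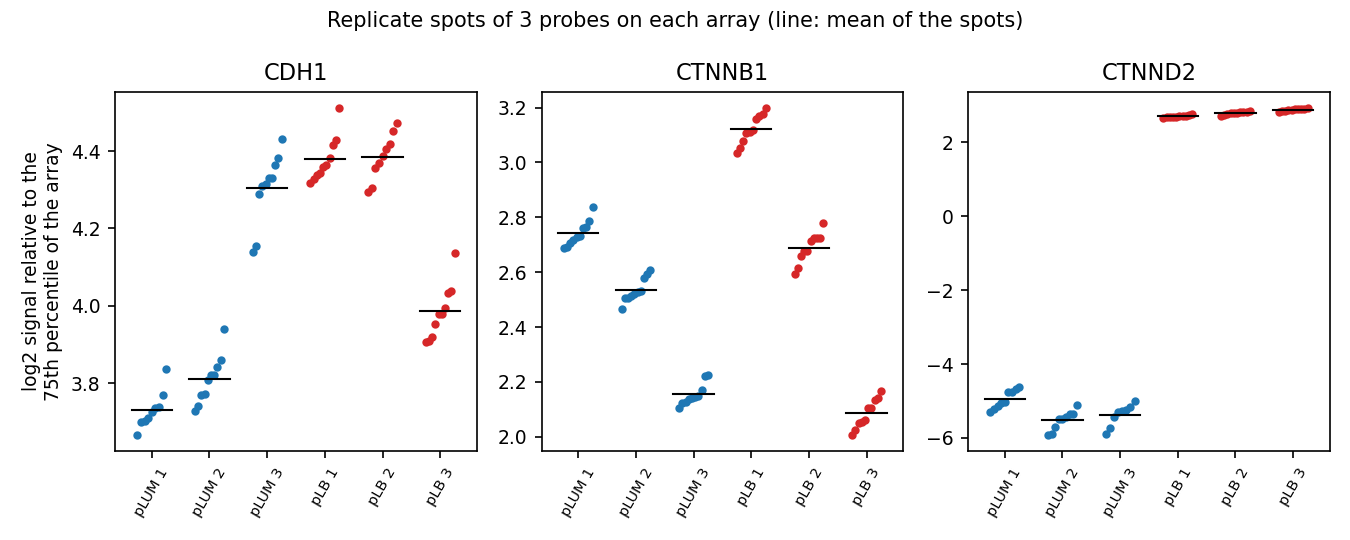
Log2 signal of the single spots of the CDH1, CTNNB1 and CTNND2 probes that were printed repeatedly on each array, sorted by value within an array; the vertical scale differs between panels. The spots of an array lie close together for CDH1 and CTNNB1, where arrays of the lines overlap, and the CTNND2 spots form separate clouds for pLUM and pLB.

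Beside the members, the other genes of the junction were counted. Of 35 genes whose products bind the cadherin-catenin complex or act on it, 34 were tested, 13 were higher in pLB, 5 were lower and 16 were not called. Their median log2 difference was 0.69, against 0.04 over all genes tested. Of all genes, 45.7% were called, 22.7% as higher and 23% as lower, and the counts of this and the following lists are read against these shares, with no test of a list. A gene at background on all arrays of 1 line passed the filter only through the other line. It could be called only as higher in that other line. Plakoglobin (JUP) can take the place of β-catenin at classical cadherin tails and is also part of desmosomes. Its log2 levels were 1.34, 1.39 and 1.84 in pLUM and 3.94, 3.54 and 2.99 in pLB. JUP rose 3.91-fold (limma adjusted p = 6.4e-04). Vinculin (VCL), which α-catenin recruits under tension, rose 3.09-fold (limma adjusted p = 0.0012). Of these 2 partners, neither overlapped between the lines.

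The partners with the largest rises were PTPRM, a receptor phosphatase that binds cadherins, NECTIN3, a nectin adhesion receptor, ACTN1, an actin cross-linker, and ADAM10, the protease that sheds E- and N-cadherin. PTPRM was well above background on no pLUM array, and its rise was at least 20.9-fold. NECTIN3 rose 30.1-fold, ACTN1 14.2-fold and ADAM10 7.99-fold. With normexp the log2 rises of PTPRM and NECTIN3 were 1.995 and 3.21, in place of fitted values of 6.06 and 4.91. ACTN1 had log2 levels of 0.27, 0.27 and 0.50 in pLUM and 4.26, 4.06 and 4.20 in pLB. The genes that fell most were the formin FMN1, PLEKHA7, AFDN and NECTIN4. FMN1 was on no pLB array above background and was at least 10.4-fold lower (log2 difference with normexp -1.92). PLEKHA7, which binds p120-catenin at the zonula adherens, fell 9.53-fold, from -1.70, -1.92 and -2.01 in pLUM to -4.99, -5.14 and -5.25 in pLB, and its log2 difference was -3.25, or -1.75 with normexp. Afadin (AFDN), which binds nectins to actin, fell 6.998-fold, and all 5 of its probes were lower. NECTIN4 fell 2.67-fold, with the spot of pLUM replicate 3 flagged and left out. Nectins 3 and 4 thus went opposite ways.

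Of 18 other cadherin genes, 11 were tested, 5 were higher in pLB, 2 lower and 4 not called (median 0.69). CDH12 and CDH16 passed the filter only through their pLB arrays. With only probes above background on all 6 arrays, 3 other cadherins were called higher and 1 lower. CDH12 was on no pLUM array above background and at least 11.7-fold higher (log2 difference with normexp 1.21). CDH16 was at least 4.40-fold higher in the same way, but its log2 difference was 0.38 with normexp and no longer called. CDH26 rose 7.06-fold (log2 difference 2.82, or 1.54 with normexp), by 1 of 2 probes, and CDH22 2.62-fold. CDH10 fell from log2 levels of -0.66, 0.60 and 0.32 in pLUM to -6.38, -5.07 and -5.10 in pLB. Only 1 of 3 pLB arrays was above background, and the fitted log2 difference was -5.61, or -3.35 with normexp. CDH19 fell 4.31-fold.

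Of 14 genes that control β-catenin or act with it, all were tested, 5 were higher, 2 lower and 7 not called (median 0.68). The TCF factors TCF7L1 and TCF7L2 rose 3.82-fold and 3.04-fold, the co-activator BCL9 2.77-fold and the kinase GSK3B 2.15-fold. BTRC, part of the ubiquitin ligase that removes β-catenin, fell 3.89-fold, and PYGO1 fell 2.84-fold by 1 of 2 probes. TCF7L2 was higher by 2 of 4 probes and was not called with normexp (0.92). Of 15 known β-catenin target genes, 12 were tested, 9 were higher, 1 lower and 2 not called (median 1.83). The 9 include APCDD1, DKK1 and AXIN2, which passed the filter only through their pLB arrays, so that a rise was the only large change they could show. With only probes above background on all 6 arrays, 6 target genes were called higher and 1 lower. APCDD1, a Wnt inhibitor, was at least 39.5-fold higher, and DKK1, a secreted Wnt antagonist, at least 17.4-fold, each on no pLUM array above background. With normexp their log2 rises were 2.86 and 1.58. MYC rose 5.79-fold, from log2 levels of 0.33, 0.54 and 0.82 to 3.25, 3.33 and 2.71. AXIN2, the usual feedback gene of the pathway, was dim: pLUM was at background and the bound was at least 1.75-fold, under the 2-fold limit, and with normexp its difference was 0.07. BAMBI, a TGFβ pseudoreceptor, fell 2.90-fold. With normexp, 5 target genes in place of 9 were called higher.

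The last list held genes known to act on E-cadherin transcription or on epithelial splicing. Of 16, 14 were tested, 4 were higher, 6 lower and 4 not called (median -0.61). Slug (SNAI2), a repressor of CDH1, was above background on no pLUM array, and its rise was at least 27.1-fold. Its log2 level was -7.40, -6.98 and -7.60 in pLUM and -0.99, -0.64 and -0.22 in pLB, and its log2 rise with normexp was 2.34. ZEB1, another repressor, rose 4.71-fold, KLF4, an activator, 4.17-fold and GRHL3 3.06-fold. With normexp the log2 rise of KLF4 was 1.11 in place of 2.06, and ZEB1 and GRHL3 were not called (0.68 and 0.75). TWIST1, a further repressor, fell 4.82-fold by 1 of 2 probes (log2 difference -2.27, or -1.63 with normexp). The epithelial factors ELF3 and GRHL1 fell 4.01-fold and 3.93-fold, and ESRP2, an epithelial splicing factor, fell 2.97-fold. None of the 52 called genes in these 5 lists changed direction under any alternative in which it could be fitted, and 16 of them lost the call under at least 1.

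**Figure D4:**
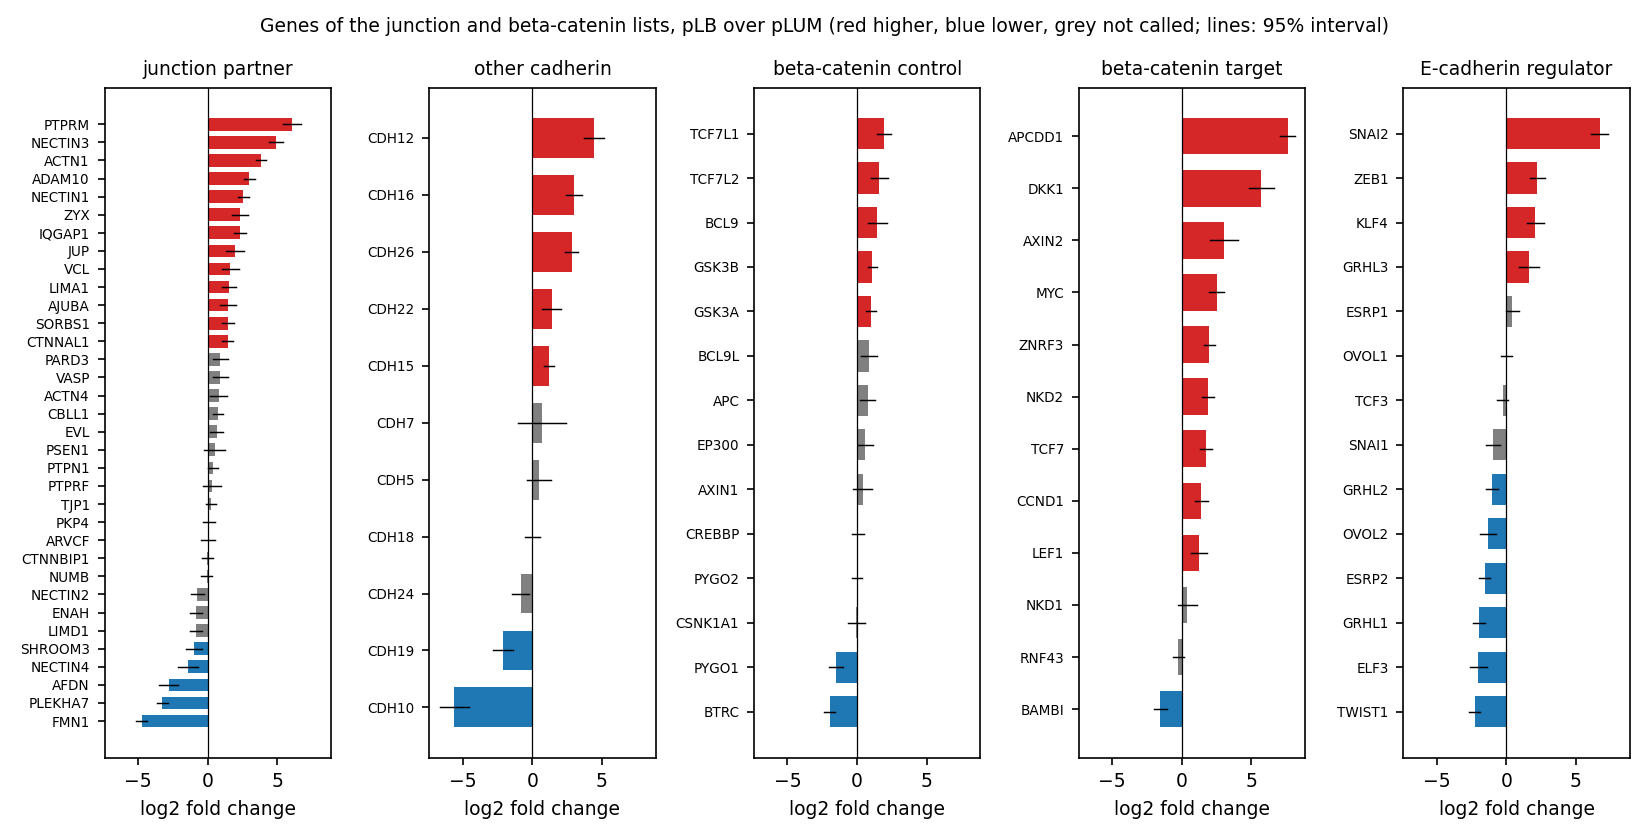
Fitted log2 fold change, pLB over pLUM, of the tested genes in the lists of junction partners, other cadherins, β-catenin control and target genes and E-cadherin regulators, by each gene's brightest tested probe. Bars of genes at background in 1 line show the fitted change, not the bound. Of the tested genes, 9 of 12 targets are called higher, and 4 of 14 regulators are called higher and 6 lower. The targets APCDD1, DKK1 and AXIN2 passed the filter only through their pLB arrays.

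The lines were cultured and sorted human cells, but cadherin-2 and cadherin-11 also mark stromal cells, so that such markers are given beside them. Of 8 fibroblast markers, 6 (COL3A1, DCN, LUM, PDGFRB, POSTN and FAP) were well above background on no array. COL1A2 rose at least 11.5-fold, and COL1A1 was not called. The summed signal of the 8, as a multiple of the array's 75th percentile, was 0.779 to 0.977 in pLUM and 0.797 to 1.16 in pLB. Most of that sum was COL1A1, with log2 levels of -0.49, -0.23 and -0.09 in pLUM and -1.20, -1.06 and -0.22 in pLB. The sum thus says little of the other markers. Of 5 endothelial markers, VWF was called higher in pLB, but no pLUM array was above background and the bound of at least 1.80-fold was under the 2-fold limit. CDH5 was not called, and PECAM1, KDR and CLDN5 were above background on no array. Of 6 leukocyte markers, CD68 was called, 2.87-fold higher. Their part in the cadherin values was not tested. In these bulk samples, a higher level in each cell and a higher share of expressing cells cannot be told apart.

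CDH3 and CDH1 lie side by side on chromosome 16, so the tested transcripts with a probe within 500 kb of either were counted. Of 19, 4 were higher in pLB, 5 lower and 10 not called, and their median log2 difference was 0.05. That share of called transcripts was near the 45.7% of all genes. HAS3, a hyaluronan synthase, stood out with log2 levels of -3.69, -3.78 and -3.48 in pLUM and 3.37, 3.53 and 3.33 in pLB. It rose by 7.06 on the log2 scale (SE 0.16, limma adjusted p = 3.1e-07), well above background on all 6 arrays. The other rises were TANGO6 (1.497), UTP4 (1.40) and SLC7A6OS (1.39) on the log2 scale. The falls were ESRP2 (-1.57), LOC100128498 (-1.47), ZFP90 (-1.10), SMPD3 (-1.03) and SLC7A6 (-1.01). The CDH1 probe lay between CDH3 and HAS3.

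**Figure D5:**
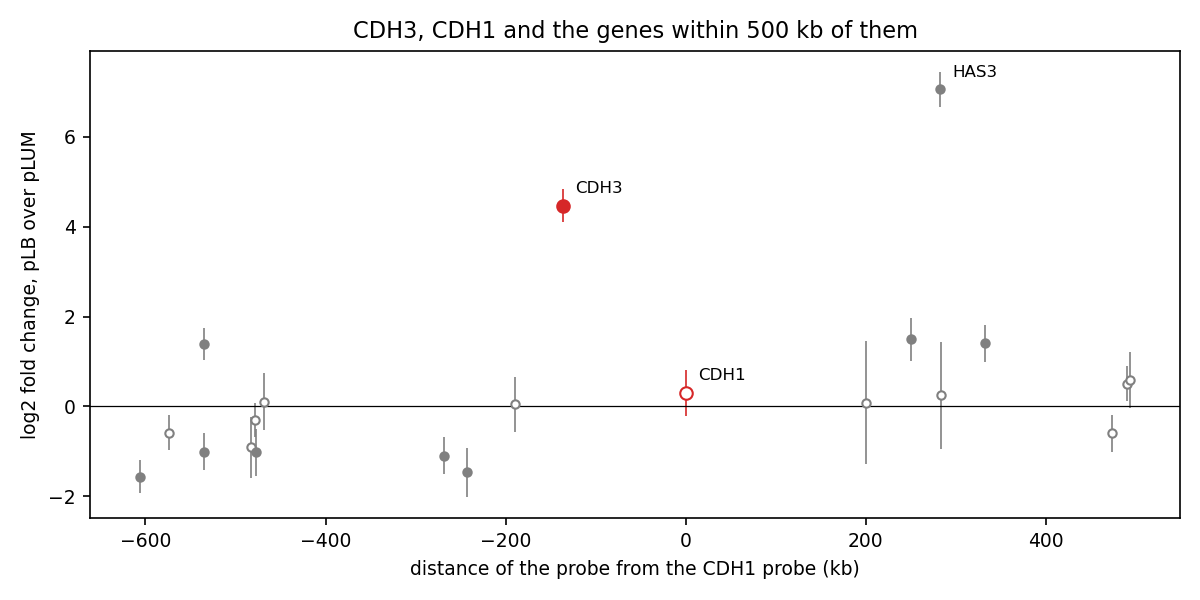
Fitted log2 fold change, pLB over pLUM, of the tested transcripts near CDH3 and CDH1, against their distance from the CDH1 probe in kb, with 95% intervals (filled, called; open, not called). CDH3 (4.47) and HAS3 (7.06) stand high above their neighbors, and CDH1 (0.30) lies between them.

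Likeness to CDH1 and CDH3 was measured as the root mean square difference of centred log2 levels over the 6 arrays, among 17668 genes. Closest to CDH1 were ADSS1 (0.059), KCTD15, MFSD12, ING2 and MEN1 (0.078). Closest to CDH3 were USH1G (0.081), CLIP2, EGFL7, HSPB3 and ARHGEF4 (0.124), with log2 differences from 4.28 to 4.48. By this measure, a gene with a step of like size between the lines is like CDH3.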

How the data were processed

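Total RNA of 3 pLUM and 3 pLB sorts was labeled with Cy3 and hybridized to Agilent 4x44K arrays. The deposited intensity columns were made by the authors' service laboratory with Feature Extraction 10.10.1.1 (per the file headers, genome build hg19). The submitters' notes also name Partek, whose values were not used here. Here, control spots and 296 to 387 outlier spots per array were left out, log2 of the processed signal minus the log2 75th percentile was taken, and spots of a probe were averaged. A probe was above background on an array where at least 50% of its kept spots were flagged so. limma 3.58.1 in R 4.3.3 was fitted over 23105 probes. In simulated data, 200 of 23099 probes were changed, a smaller share than was called in the real data. The same rule recovered 67.5% of them with 7 false calls, so that true changes can go uncalled. With so unlike a share of changed probes, 67.5% does not measure the recovery in the real data. A gene was represented by its brightest tested probe. The number of arrays limits the precision. Of each list, up to 4 called genes with the largest fitted change each way were named, and JUP and VCL always. Members and lists were chosen with earlier results of these data known. Older symbols were updated, and promoter windows taken, through RefSeq (GRCh38.p14; 28477 probes matched). No gene structure on hg19 was used, so exon positions are not given. Alternatives were normexp (offset 50), quantile, median and spike-in scaling, other filters, a signal floor, no fold limit, the methods' t-test, slide and replicate blocks, the mean of probes and leaving out each array. Slide 1 alone was added after seeing the data.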

Additional observations from a re-analysis of the deposited data

How the results depend on the processing

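Of 212 alternative values for single cadherin and catenin probes, 205 kept their direction and their side of the call. With only probes above background on all 6 arrays, 3 member probes (2 genes) were called higher, since CDH2, CDH11 and CTNND2 were no longer tested; in the lists, junction genes called lower were 2 and other cadherins 3 higher and 1 lower. With spike-in scaling 0 member probes and 0 genes were called lower, CTNND1 at -0.995 (adjusted p = 0.046); 0 genes were lower by the mean of probes, and 1 β-catenin control gene. With no fold limit, the CTNNB1 probe for NM_001098210 (0.68) was called, and 8 junction genes were lower. With normexp, 3 other cadherins, 5 target genes and 2 regulators were called higher. The uncalled CTNNB1 probe for NM_001904 changed sign without pLUM replicate 3 (-0.0071) and without pLB replicate 1 (-0.090; range over left-out arrays -0.090 to 0.43), and the uncalled CTNND1 probe for NM_001206885 with slide as a block or slide 1 alone (-0.32) and without pLB replicate 3 (-0.15; range -0.15 to 0.44). Leaving out each array in turn gave 7 member probes higher and 1 lower, and 5 genes higher and 1 lower, each time. In the lists it gave 13 to 15 junction genes higher and 4 to 5 lower, 5 other cadherins higher and 2 to 3 lower, and 4 to 6 control genes higher and 2 lower. Target genes (9 higher, 1 lower) and regulators (4 higher, 6 lower) kept their counts. Replicate numbers did not pair the sorts (correlations of same-numbered deviations -0.27, -0.09 and -0.22, none the best for its number). The replicate block gave 7 member probes higher and 1 lower, and 4986 probes higher and 5383 lower among all. Normexp moved the median of all probes by -0.25 and spike-in scaling by 0.25, and 48.0% of calls were higher in pLB, against 42.7% and 58.0%. The causes were not tested. Signal near background limits CDH2, CDH11 and CTNND2 in pLUM.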
